A study of Mus musculus with 9 samples.

Results

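The genes described here encode effectors, regulators and targets of the Hippo pathway, measured as RNA in AdvSca1-SM cells. They comprise the coactivators YAP (*Yap1*) and TAZ (*Wwtr1*), the DNA-binding factors *Tead1*, *Tead2*, *Tead3* and *Tead4*, and 4 genes that act on the coactivators or serve as their targets, *Lats2*, *Ajuba*, *Amotl2* and *Ankrd1*. They were chosen by name, with earlier results of these data known, and are 10 of the 55416 genes in the count table. All 10 passed the filter on low counts, which left 14879 genes for testing.

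AdvSca1-SM cells are smooth muscle–derived, Sca1-expressing progenitors of the arterial adventitia. They were sorted as YFP+ and Sca1+ cells from pooled arteries (aorta and carotid) of SM22α-Cre-YFP mice aged 8 weeks, in which the smooth muscle SM22α (*Tagln*) promoter drives the Cre that switches on the YFP reporter, and they were subcultured between passages 2 and 6. The label on these cells therefore records a past or present smooth muscle promoter activity and not a current identity. RNA-Seq was done on 3 groups of 3 libraries, all exposed to 0.1% DMSO and harvested at 72 h. Stem cells were kept in stem cell medium with vehicle, a medium that was described for maintenance with 10% FBS, 1 ng/mL basic fibroblast growth factor and 5 ng/mL epidermal growth factor. TGF-β cells were growth arrested for 24 h and stimulated with 5 ng/mL TGF-β1 in DMEM with 0.1% FBS. Both cells received the same stimulation plus 50 μM PFI-3, a small molecule that binds the bromodomains of the chromatin remodelers Brg1 (*Smarca4*), Brm (*Smarca2*) and PBRM1. Medium, serum and TGF-β1 change together between Stem and the other groups and cannot be told apart. PFI-3 without TGF-β1 was not analysed here.

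In the Hippo pathway, the kinases MST1 and MST2 activate LATS1 and LATS2, which phosphorylate YAP and TAZ and keep them out of the nucleus. When the kinases are quiet, as on a stiff matrix or in spread cells, YAP and TAZ enter the nucleus and bind TEAD factors, which carry the DNA-binding domain that the coactivators lack. Several targets, among them *Lats2*, *Amotl2* and *Ajuba*, encode proteins that feed back on the pathway, and YAP and TAZ are known as drivers of fibroblast activation in stiff tissue. Much of this regulation acts on protein location and phosphorylation, which counts of RNA do not measure.

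TEAD factors recognize the core CATTCC, which reads GGAATG on the other strand. It was searched for on both strands in the RefSeq promoter windows of the mouse build GRCm38.p6, which run from 250 bases before to 50 bases after an annotated transcript start. Windows were at hand for 8 of the 10 genes, all but *Tead1* and *Tead4*, and 7 of the 8 held the core in at least 1 window, *Tead2* being the exception. Over all genes with a window, 16.6% held the core (4481 of 27025), and over the 32851 windows 14.7% did. Because some of the 10 genes have several windows, the share per gene depends on how many starts are annotated, and a match of 6 letters is a description of the sequence and not a measured binding site. The sites before the start are shown for the target *Ankrd1*, for the feedback genes *Ajuba* and *Amotl2* and for both coactivators, because these are the genes on which the comparisons below turn. Each line reads 5′ to 3′ on the gene's own strand, with the core in capitals and 12 bases on each side. The distance runs from the core to the annotated start of a window that held it, which need not be the nearest start. Cores without 12 bases on each side inside the window are left out.
Ankrd1, 123 bases before the start, chr19:36119950-36119979, minus strand: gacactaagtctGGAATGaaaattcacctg
Ankrd1, 210 bases before the start, chr19:36120037-36120066, minus strand: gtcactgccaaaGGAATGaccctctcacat
Ajuba, 164 bases before the start, chr14:54577808-54577837, minus strand: tgcccctccgcgCATTCCaactgtaaacaa
Ajuba, 186 bases before the start, chr14:54577830-54577859, minus strand: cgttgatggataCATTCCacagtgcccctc
Amotl2, 65 bases before the start, chr9:102717727-102717756, plus strand: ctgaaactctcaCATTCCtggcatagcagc
Yap1, 141 bases before the start, chr9:8004720-8004749, minus strand: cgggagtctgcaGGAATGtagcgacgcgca
Wwtr1, 136 bases before the start, chr3:57576029-57576058, minus strand: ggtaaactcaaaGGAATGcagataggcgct
By the same rule, the *Tead3* windows held 3 cores before a start and 1 after it, and the 1 core of *Lats2* lay after the start.

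The libraries held between 35686291 and 47741128 counts on genes. Levels are given as normalized counts, that is counts scaled by edgeR's TMM method to the mean effective library of 41184338, with the mean ± SD of 3 libraries per group. Differences are log2 fold changes, second group over first, fitted with edgeR to the 9 libraries together and tested by its quasi-likelihood method, with their SE and with p-values adjusted over all 14879 genes by the Benjamini-Hochberg method; a gene was called at an adjusted p below 0.05. The biological coefficient of variation was 6.13%, so that differences of a few percent lie within the spread between libraries. The replicates were stated to be independent. Stem replicate 2 stood apart in a chi-square of counts per gene, which came to 127 and 104 against the other Stem libraries. The other pairs within a group lay between 5.89 and 16.1. By rank the libraries were alike. Spearman correlations across genes were 0.995 and 0.997 for Stem replicate 2 against Stem replicates 1 and 3. The other pairs lay between 0.997 and 0.998. The 10 most counted genes held 22.8% of the counts of Stem replicate 2, against 19.5% and 19.9% in the other Stem libraries. In bulk RNA, fewer cells of a type and less RNA per cell cannot be told apart. As a check of the label, the summed normalized counts of 4 adventitial progenitor markers (*Ly6a*, *Pdgfra*, *Cd34* and *Scara5*) ranged from 50470 to 58770 across Stem libraries, 6361 to 6638 across TGF-β libraries, and 6784 to 7423 across Both libraries. *Pdgfra* makes up most of this sum; from TGF-β to Both it rose (log2 fold change 0.20, adjusted p = 0.049) whereas *Scara5* fell (-1.18, adjusted p = 0.038), and *Ly6a* (-0.36) and *Cd34* (-0.62) were not called. In the same order of groups, the 4 myofibroblast markers summed to between 85260 and 97870, 717300 and 767100, and 508300 and 539900. *Col1a1* makes up most of this sum. From TGF-β to Both, *Postn* (log2 fold change -1.74), *Acta2* (-0.59) and *Col1a1* (-0.47) fell, while *Cthrc1* (-0.09) was not called. The 6 smooth muscle markers summed to between 10610 and 13320, 22690 and 25150, and 17400 and 18330. *Acta2* is in both of the last lists, and *Acta2* and *Tagln* make up most of the smooth muscle sum. The defining contractile gene *Myh11* stood at no more than 335 normalized counts in any library and fell from Stem to TGF-β (log2 fold change -1.58), as did *Lmod1* (-0.69), while *Cnn1* and *Smtn* were not called. Markers of endothelial cells, leukocytes, striated muscle and hepatocytes summed to no more than 67.4 in any library, and *Adgre1*, *Cd3e*, *Ckm*, *Myh6*, *Nppa* and *Serpina1a* had 0 counts throughout. Some of these markers were called from Stem to TGF-β, all at low counts. *Kdr* (log2 fold change 4.97) and *Cd68* (1.86) rose, whereas *Tek* (-1.31) and *Tnni3* (-1.05) fell. The RNA was labelled as hepatic in the extraction notes, but *Alb* had at most 2 counts in a library. *Apob*, also in the hepatocyte list, had between 12 and 46 counts in every library and makes up most of that list's sum. It was called lower from TGF-β to Both (log2 fold change -0.93). The part of the progenitor and myofibroblast markers in the results that follow was not tested.

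The RNAs for YAP and TAZ moved in opposite directions between Stem and TGF-β. *Yap1*, which encodes the coactivator YAP, had 9401, 9387 and 9388 normalized counts in the Stem libraries, 6012, 5813 and 5835 in the TGF-β libraries, and 6030, 5951 and 6042 in the Both libraries. Every Stem library lay above every library of the other groups, and the TGF-β and Both libraries overlapped. *Yap1* fell by 37.3% from Stem to TGF-β, from 9392 ± 7.77 to 5886 ± 109 (log2 fold change -0.67, SE 0.03, adjusted p = 2.16e-09). PFI-3 added to TGF-β1 gave a log2 fold change of 0.03 (95% confidence interval -0.04 to 0.10, adjusted p = 0.65). Against Stem, Both was 1.56-fold lower (log2 fold change -0.64, SE 0.03, adjusted p = 3.62e-09).

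*Wwtr1*, which encodes TAZ, had 7242, 6976 and 7169 normalized counts in the Stem libraries, 8989, 8950 and 9188 in the TGF-β libraries, and 8309, 8153 and 8199 in the Both libraries. The 3 groups did not overlap, with TGF-β highest and Both between the others. *Wwtr1* rose by 26.8% from Stem to TGF-β, from 7129 ± 138 to 9042 ± 128 (log2 fold change 0.34, SE 0.03, adjusted p = 1.54e-06). It fell by 9.09% from TGF-β to Both, to 8220 ± 80.4 (log2 fold change -0.14, SE 0.03, adjusted p = 0.025). That call was lost when any TGF-β or Both library or Stem replicate 3 was left out, with adjusted p-values up to 0.12, and with total counts or without the filter (up to 0.090), while in the fits that left out a library the log2 fold change stayed between -0.15 and -0.13. Against Stem, Both was 15.3% higher (log2 fold change 0.21, adjusted p = 1.49e-04).

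On a scale that allows genes to be compared, normalized counts per kb of annotated exon, TAZ RNA exceeded YAP RNA in every library, and the gap was wider in TGF-β than in Stem. The ratio of *Wwtr1* to *Yap1* per kb was 1.49, 1.44 and 1.48 for Stem libraries, 2.90, 2.98 and 3.05 for TGF-β libraries, and 2.67, 2.65 and 2.63 for Both libraries. The groups did not overlap in this ratio, which is given as a description. The sum of the 2 coactivators per kb ran from 2474 to 2531 across Stem libraries, 2501 to 2553 across TGF-β libraries, and 2349 to 2390 across Both libraries. The exon lengths behind these values, 9257 bases for *Yap1* and 4779 bases for *Wwtr1*, are unions over all annotated transcripts, so an isoform with a shorter exon set would have a higher true level per kb. The order of the 2 genes in Stem depends on these lengths. Without length scaling, *Yap1* lay above *Wwtr1* in every Stem library (9387 or more against 7242 or less) and below it in every other library.

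**Figure D1:**
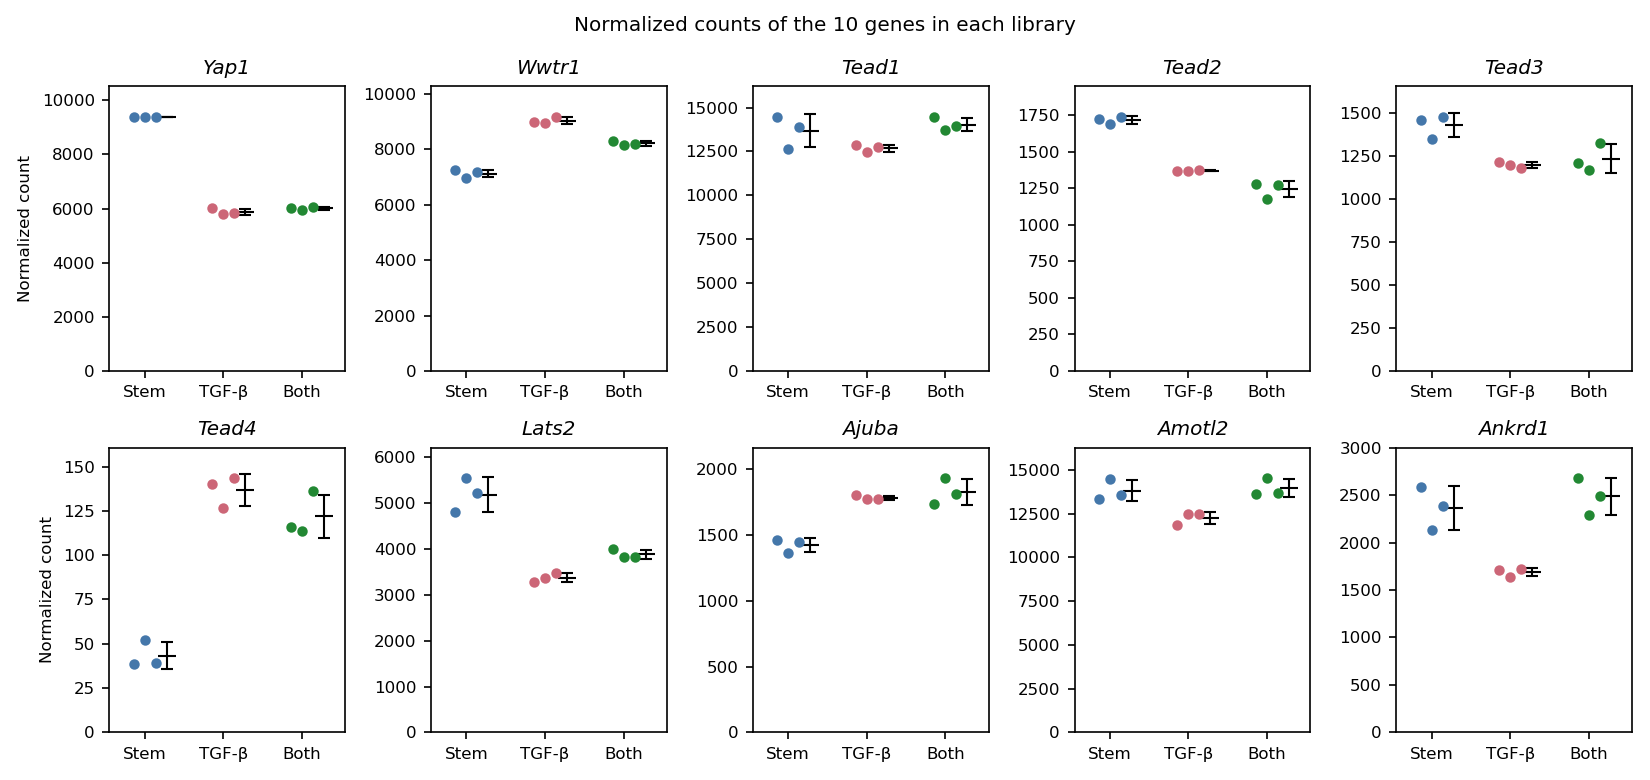
Normalized count of each of the 10 genes (y axis, starting at 0) in the Stem, TGF-β and Both groups (x axis); points are libraries, ordered by replicate number within a group, and the black bar beside them is the mean ± SD of 3 libraries. *Yap1* stood at 9387 or more in Stem and at 6042 or less in the other groups, whereas *Ankrd1* was lowest in the TGF-β libraries, at 1717 or less.

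*Tead1* was the main TEAD of these cells in all 3 groups, and *Tead4* rose from a low level. *Tead1* had 14492, 12651 and 13880 normalized counts in the Stem libraries, 12846, 12468 and 12761 in the TGF-β libraries, and 14441, 13717 and 13934 in the Both libraries. Its lowest Stem value came from Stem replicate 2 and lay within the TGF-β range, so Stem and TGF-β overlapped, and the change between them was not called (log2 fold change -0.11, 95% confidence interval -0.21 to -0.0018, adjusted p = 0.061). Without Stem replicate 2 its log2 fold change was -0.16 and was called (adjusted p = 0.0024). TGF-β and Both did not overlap, with a log2 fold change of 0.14 (95% confidence interval 0.04 to 0.25, adjusted p = 0.087). Without Stem replicate 2, a fit that also tested more genes (15155), it was called as well (adjusted p = 0.012).

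*Tead2* had 1724, 1687 and 1740 normalized counts in the Stem libraries, 1364, 1370 and 1375 in the TGF-β libraries, and 1275, 1178 and 1272 in the Both libraries. The 3 groups did not overlap, in descending order from Stem to Both. It fell by 20.2% from Stem to TGF-β (log2 fold change -0.33, SE 0.04, adjusted p = 2.40e-05) and by 27.7% from Stem to Both (log2 fold change -0.47, adjusted p = 9.87e-07). From TGF-β to Both it was not called (log2 fold change -0.14, adjusted p = 0.069), but it was when Stem replicate 2 was left out (adjusted p = 0.043). *Tead3* had 1464, 1350 and 1482 normalized counts in the Stem libraries, 1218, 1201 and 1180 in the TGF-β libraries, and 1213, 1170 and 1330 in the Both libraries. It fell by 16.2% from Stem to TGF-β (log2 fold change -0.26, SE 0.06, adjusted p = 0.0014), and the TGF-β and Both libraries overlapped (log2 fold change 0.05, 95% confidence interval -0.08 to 0.17).

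*Tead4* was the least abundant of the family, with 38.7, 52.2 and 38.9 normalized counts in the Stem libraries, 140.3, 126.8 and 143.5 in the TGF-β libraries, and 116.1, 113.5 and 136.0 in the Both libraries. All Stem libraries lay under all others, and the TGF-β and Both libraries overlapped. It rose 3.16-fold from Stem to TGF-β (log2 fold change 1.66, SE 0.15, adjusted p = 6.55e-07) and 2.82-fold from Stem to Both (log2 fold change 1.49, SE 0.15, adjusted p = 1.92e-06). It was the only one of the 10 genes to change by at least 2-fold in any comparison. From TGF-β to Both its log2 fold change was -0.16 (95% confidence interval -0.44 to 0.11, adjusted p = 0.47).

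Expressed as a share of the 4 TEADs per kb, *Tead1* held 63.3% ± 1.16 of the Stem pool, 65.0% ± 0.25 of the TGF-β pool and 68.4% ± 1.07 of the Both pool (SD, n = 3). *Tead2* held 22.6% ± 0.88, 19.9% ± 0.27 and 17.2% ± 0.30. *Tead3* held 13.4% ± 0.24, 12.4% ± 0.22 and 12.2% ± 0.67, and *Tead4* 0.76% ± 0.18, 2.64% ± 0.15 and 2.24% ± 0.20. From TGF-β to Both, the mean share of *Tead1* was 3.38 percentage points higher and that of *Tead2* dropped by 2.74 percentage points, with no overlap between the libraries. Both differences had an exact 2-sided permutation p of 0.1 (0.13 adjusted over the 4 TEADs), the smallest that 3 against 3 libraries can give, so that no share could pass 0.05. In all 3 comparisons the other shares reached the same smallest value, except that of *Tead3* in TGF-β against Both (exact permutation p = 0.6). The shares of a library sum to 100% and are not independent of each other.

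**Figure D2:**
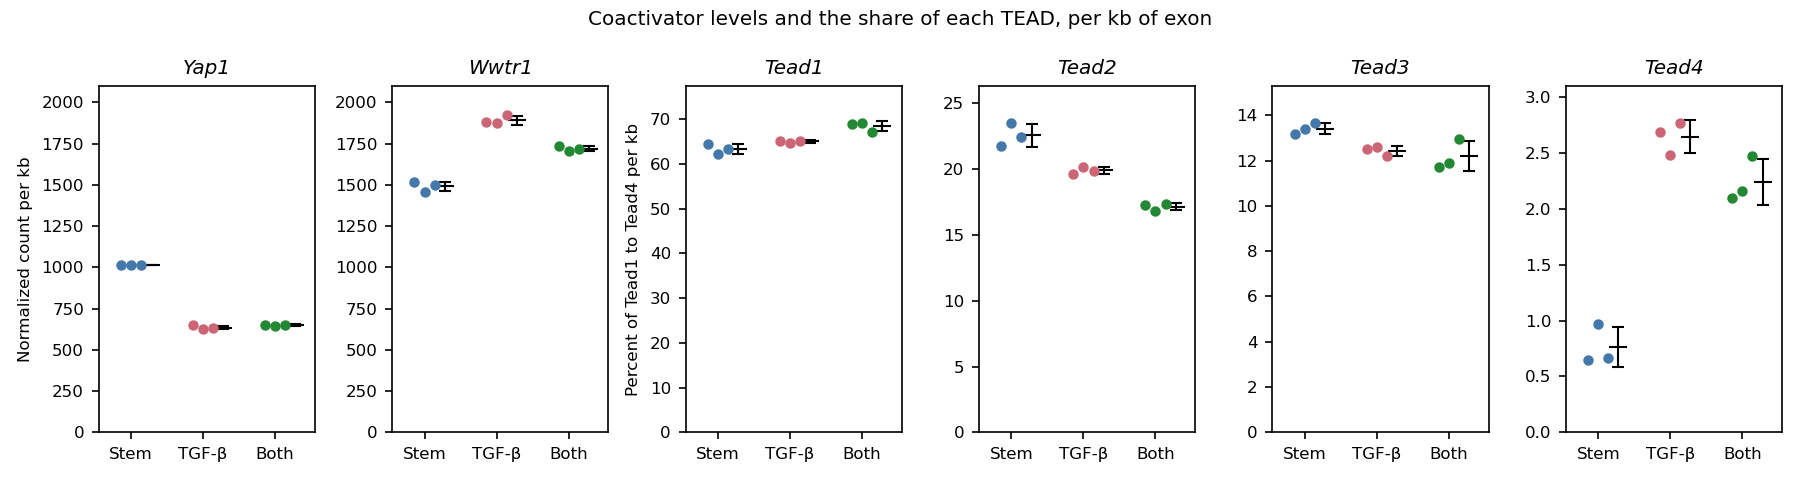
Normalized counts per kb of exon for *Yap1* and *Wwtr1* (first 2 panels, same y axis) and the percent of the summed *Tead1* to *Tead4* level per kb held by each TEAD (other panels, y axes starting at 0 with different ranges), by group; points are libraries and black bars the mean ± SD of 3. Per kb, *Wwtr1* lay above *Yap1* in every library, and *Tead1* held between 62.1% and 69.1% of the TEAD pool.

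Among the genes that restrain the coactivators, *Lats2*, a kinase that phosphorylates YAP and TAZ, had 4800, 5544 and 5210 normalized counts in the Stem libraries, 3276, 3373 and 3468 in the TGF-β libraries, and 3996, 3832 and 3813 in the Both libraries. The 3 groups did not overlap. *Lats2* fell by 34.9% from Stem to TGF-β (log2 fold change -0.62, SE 0.05, adjusted p = 2.80e-07). It was 15.0% higher in Both than in TGF-β (log2 fold change 0.20, SE 0.05, adjusted p = 0.029) and was lower there than in Stem (log2 fold change -0.42, adjusted p = 1.07e-05).

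*Amotl2*, a motin that holds YAP at cell junctions and in the cytoplasm, had 13354, 14480 and 13541 normalized counts in the Stem libraries, 11863, 12480 and 12449 in the TGF-β libraries, and 13623, 14527 and 13685 in the Both libraries. The TGF-β libraries lay under all others, and Stem and Both overlapped. It fell by 11.1% from Stem to TGF-β (log2 fold change -0.17, SE 0.04, adjusted p = 0.0040) and was 13.7% higher in Both than in TGF-β (log2 fold change 0.19, SE 0.04, adjusted p = 0.022). *Ajuba*, a LIM domain protein that inhibits LATS kinases, had 1459, 1365 and 1443 normalized counts in the Stem libraries, 1798, 1770 and 1771 in the TGF-β libraries, and 1736, 1930 and 1805 in the Both libraries. The Stem libraries lay under all others: *Ajuba* rose by 25.1% from Stem to TGF-β (log2 fold change 0.32, SE 0.05, adjusted p = 6.18e-05). The TGF-β and Both libraries overlapped (log2 fold change 0.04, 95% confidence interval -0.07 to 0.14).

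*Ankrd1*, a classic YAP and TAZ target that encodes a nuclear and sarcomeric ankyrin repeat protein, differed most between TGF-β and Both. It had 2584, 2128 and 2382 normalized counts in the Stem libraries, 1710, 1639 and 1717 in the TGF-β libraries, and 2679, 2294 and 2487 in the Both libraries. The TGF-β libraries lay under all others, and Stem and Both overlapped. It fell by 28.6% from Stem to TGF-β, from 2364 ± 229 to 1689 ± 43.4 (log2 fold change -0.49, SE 0.07, adjusted p = 5.51e-05). In Both it was 47.3% higher than in TGF-β, at 2487 ± 193 (log2 fold change 0.56, SE 0.07, adjusted p = 5.59e-04), and this call held whichever library was left out, with log2 fold changes between 0.50 and 0.61 and adjusted p-values of at most 0.0047. Its log2 fold change between Stem and Both was 0.07 (95% confidence interval -0.08 to 0.23).

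Of the 10 genes, 9 were called between Stem and TGF-β, 3 higher (*Wwtr1*, *Tead4* and *Ajuba*) and 6 lower (*Yap1*, *Tead2*, *Tead3*, *Lats2*, *Amotl2* and *Ankrd1*). In that comparison 75% of all genes tested were called, 37.3% higher and 37.7% lower, so that 9 of 10 is near the background. With a 2-fold minimum 1 of the 10 was called, against 25.1% of all genes. The median size of the log2 fold change over the 10 genes was 0.33, against 0.49 over all genes. The groups did not overlap for 9 of the 10 genes and for 76.8% of all genes. When total counts replaced TMM, the median over all genes shifted by -0.12 on the log2 scale, and each of the 9 called genes kept its direction.

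With PFI-3 added to TGF-β1, 4 of the 10 genes were called, 3 higher (*Lats2*, *Amotl2* and *Ankrd1*) and 1 lower (*Wwtr1*), against a background of 8.92% of all genes, 3.54% higher and 5.38% lower. By edgeR and by DESeq2, 0 of the 10 genes reached 2-fold at an adjusted or unadjusted p below 0.05, against 0.632% of all genes at the adjusted p. The groups did not overlap for 6 of the 10 genes and for 32.7% of all genes. Leaving out any 1 of the TGF-β or Both libraries left *Ankrd1* as the only call, so 3 of the 4 calls rest on having all 3 libraries of each group; over all genes the calls then fell from 1327 to between 639 and 1171. This comparison and that of Stem with TGF-β share the TGF-β libraries, so opposite signs in them are not independent of each other.

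Between Stem and Both, 7 of the 10 genes were called, 3 higher (*Wwtr1*, *Tead4* and *Ajuba*) and 4 lower (*Yap1*, *Tead2*, *Tead3* and *Lats2*). The background was 73.3% of all genes, with 36.6% higher and 36.6% lower. With the 2-fold minimum 1 was called, against 22.8%. The groups did not overlap for 7 of the 10 genes and for 74.7% of all genes. *Tead1*, *Amotl2* and *Ankrd1* were not called, with log2 fold changes of 0.04, 0.02 and 0.07; all 3 took a negative sign with total-count scaling.

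**Figure D3:**
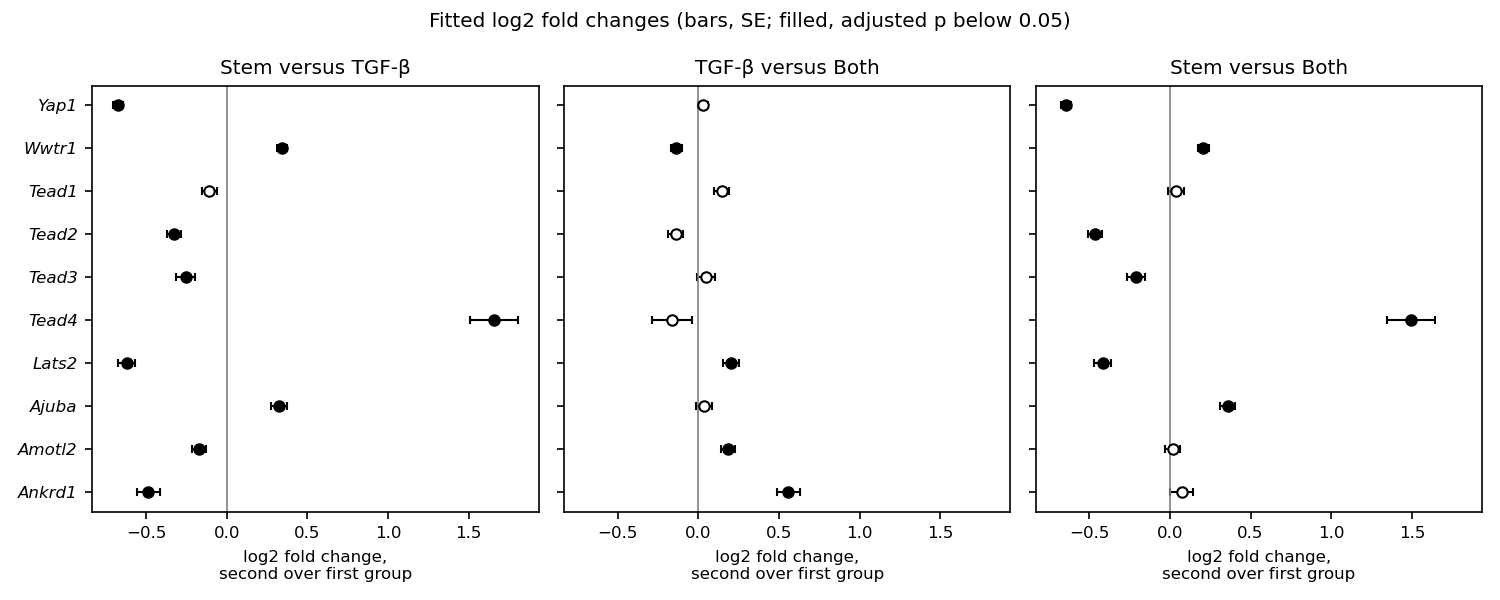
Log2 fold change of each gene (x axis, second group over first) in the 3 comparisons, from the edgeR fit of all 9 libraries; bars are the SE and filled points have an adjusted p below 0.05. *Tead4* moved furthest from Stem, by 1.66 and 1.49, and *Ankrd1* furthest between TGF-β and Both, by 0.56.

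Ordered by level per kb, *Amotl2* and *Wwtr1* were the most abundant of the 10 genes in each group and *Tead2*, *Tead3* and *Tead4* the least. In Stem the order was *Amotl2* (2193 normalized counts per kb), *Wwtr1* (1492), *Yap1* (1015), *Tead1* (1008), *Ankrd1* (819), *Lats2* (744), *Ajuba* (390), *Tead2* (359), *Tead3* (213) and *Tead4* (12.0). The libraries of *Yap1* and *Tead1* overlapped there, as did those of *Ankrd1* and *Lats2*, and no other neighbours did. In TGF-β *Tead1* (935) stood above *Yap1* (636), *Amotl2* (1950) overlapped *Wwtr1* (1892), and *Ajuba* (488) overlapped *Lats2* (484). In Both no neighbours overlapped, and *Ankrd1* (862) stood between *Tead1* (1034) and *Yap1* (649). These orders depend on the exon lengths. Without length scaling, mean *Tead1* stood above mean *Amotl2* in TGF-β (12691 against 12264 normalized counts), with overlapping libraries. The same held in Both (14031 against 13945). Unscaled *Wwtr1* in Stem (7129) lay under *Tead1* (13674) and *Yap1* (9392).

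The kinase side of the pathway was called at about the rate of all genes. Of 14 genes of the Hippo kinase cascade and its scaffolds, 10 were called between Stem and TGF-β, 4 higher and 6 lower, against 75% of all genes. With the 2-fold minimum 25.1% of all genes were called in either direction, and 3 of the 14 fell by at least 2-fold. These were *Frmd6* (log2 fold change -1.60, SE 0.04, adjusted p = 4.85e-12), *Wwc1* (-1.04, SE 0.07, adjusted p = 3.81e-08) and *Sav1* (-1.02, SE 0.04, adjusted p = 3.03e-10), which encode scaffolds that help activate MST and LATS kinases. *Frmd6* went from 9045 to 2988 normalized counts. The median log2 fold change of the list was -0.03, against -0.0027 over all genes. With PFI-3, 1 of the 14 was called, against 8.92% of all genes. This was *Frmd6* (log2 fold change 0.15, adjusted p = 0.028), a call lost in each fit without a TGF-β or Both library. The list median there was 0.02, with a median size of 0.06 against 0.11 over all genes.

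Of 17 upstream cadherins, motins, LIM adaptors, VGLL cofactors and STRIPAK phosphatase subunits, 15 were tested, since *Vgll1* and *Vgll2* had 0 counts in every library. Between Stem and TGF-β 11 were called, 1 higher and 10 lower, against 75% of all genes (37.3% higher and 37.7% lower), with a list median of -0.20. *Fat1*, a giant protocadherin upstream of the kinases, rose from 60198 to 147688 normalized counts (log2 fold change 1.29, SE 0.04, adjusted p = 9.81e-11). The largest falls were those of *Dchs1*, the cadherin ligand of FAT4 (log2 fold change -3.35, SE 0.06, adjusted p = 5.24e-13), of the motin *Amot* (-2.50, SE 0.10, adjusted p = 3.47e-10) and of *Vgll4*, which competes with YAP for TEADs (-1.82, SE 0.07, adjusted p = 3.95e-10). *Dchs1* went from 2275 to 223 normalized counts, a 10.2-fold fall, while the related motin *Amotl2* fell by 11.1%. With PFI-3, 1 of the 15 was called, against 8.92% of all genes. This was *Vgll3*, another TEAD-binding cofactor, named here after its value was seen. It had 7762, 8113 and 8016 normalized counts in TGF-β and 9976, 9690 and 9946 in Both (log2 fold change 0.31, SE 0.06, adjusted p = 0.0059), and the call held in all 9 fits that left out a library.

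Of 19 other targets from a signature of genes that respond to YAP and TAZ across tissues, 17 were called between Stem and TGF-β, 9 higher and 8 lower, and 7 changed by at least 2-fold, against 75% and 25.1% of all genes. The median log2 fold change was 0.30 and its median size 0.70, against 0.49 over all genes. The 4 largest rises were those of *Ccn2* (connective tissue growth factor; log2 fold change 2.21, SE 0.10, adjusted p = 1.04e-09), *Nuak2* (1.46, SE 0.10), *Dock5* (1.33, SE 0.05) and *F3* (tissue factor; 1.21, SE 0.06). *Ccn2* went from 31085 to 144285 normalized counts, and 1 further gene rose by at least 2-fold. The insulin-like growth factor–binding *Igfbp3* (-2.58, SE 0.13, adjusted p = 3.55e-09) and *Crim1* (-1.06, SE 0.04, adjusted p = 1.92e-10) fell by at least 2-fold. The targets thus moved in both directions, as *Ankrd1* and *Ajuba* did.

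Of these 19 targets, 6 were called between TGF-β and Both, 3 higher and 3 lower, against 8.92% of all genes (3.54% higher and 5.38% lower), with a median of -0.03; they are named here after their values were seen. *Crim1*, a transmembrane protein that binds bone morphogenetic proteins, had 11200, 10914 and 10967 normalized counts in TGF-β and 14324, 13586 and 13666 in Both (log2 fold change 0.33, adjusted p = 3.90e-04). *Ccn1*, a matricellular protein, had 15435, 13942 and 14880 in TGF-β and 18483, 18453 and 18245 in Both (log2 fold change 0.32, adjusted p = 8.60e-04). *Asap1*, a regulator of ARF GTPases, was 23.2% higher in Both (log2 fold change 0.30, adjusted p = 0.0022). For these 3 genes, as for *Ankrd1*, all Both libraries lay above all TGF-β libraries. They were picked as called higher, which makes such a separation likely. In either direction, the groups did not overlap for 11 of the 19 targets and for 32.7% of all genes.

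The 3 targets that were lower in Both were *Gadd45a*, a stress response gene, *Fjx1* and the ligand gene *Tgfb2*. *Gadd45a* had 2225, 2313 and 2320 normalized counts in TGF-β and 1495, 1687 and 1639 in Both (log2 fold change -0.51, adjusted p = 2.17e-04). *Fjx1* fell by 20.1% (adjusted p = 0.031) and *Tgfb2* by 14.7% (adjusted p = 0.032). The calls of *Crim1*, *Ccn1*, *Asap1* and *Gadd45a* held in all 9 fits that left out a library, that of *Fjx1* in 2 and that of *Tgfb2* in 3. *Ccn2* stood at 144285 normalized counts in TGF-β and 139694 in Both (log2 fold change -0.05, 95% confidence interval -0.25 to 0.16).

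**Figure D4:**
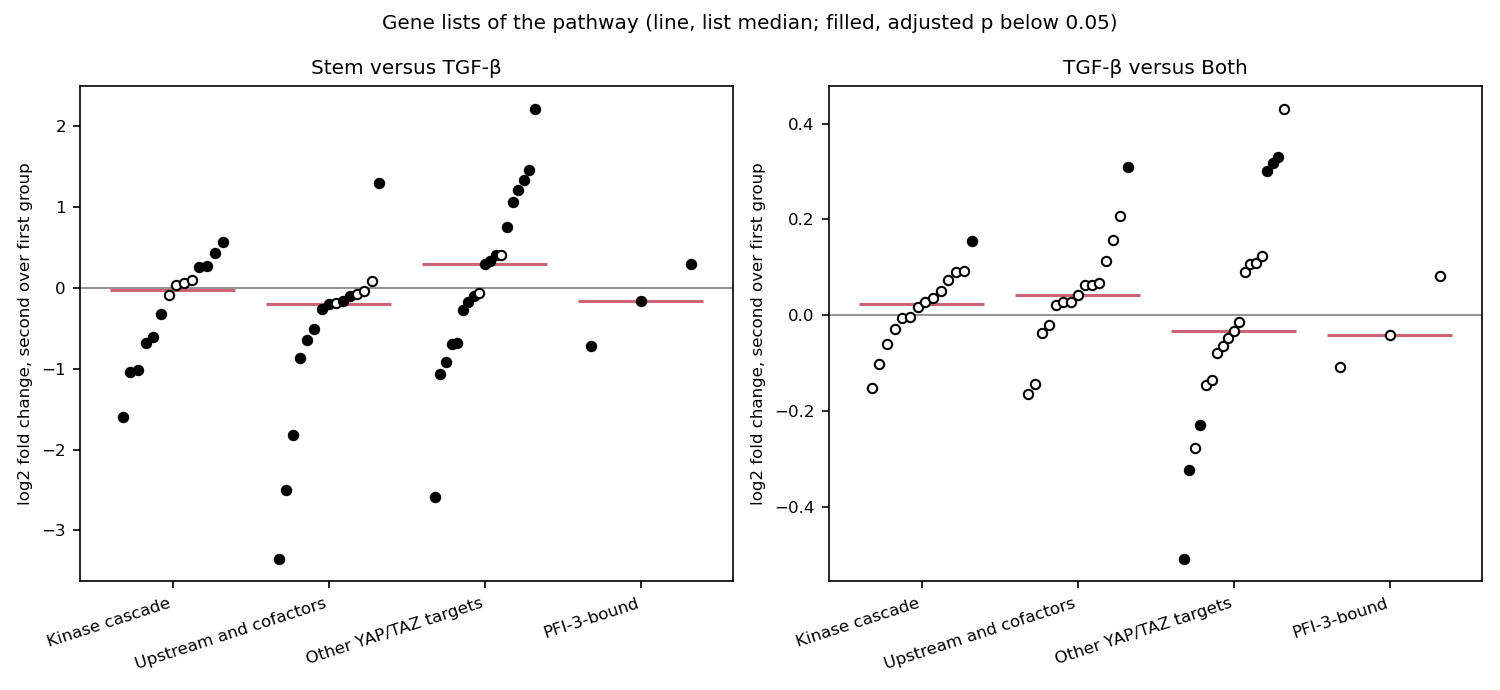
Log2 fold change (y axis, second group over first; the 2 panels have different ranges) of each tested gene in 4 lists of the pathway, with TGF-β against Stem on the left and Both against TGF-β on the right; points are genes sorted by value, filled where the adjusted p was below 0.05, and the line is the list's median. On the right 6 of 19 targets were called, 3 in each direction, and 1 of 14 genes of the kinase cascade, beside 8.92% of all genes.

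All 3 genes for bromodomain proteins that PFI-3 binds were called between Stem and TGF-β, where 75% of all genes were called, with changes under 2-fold. *Smarca4*, which encodes Brg1, rose from 4175 to 5108 normalized counts (log2 fold change 0.29, adjusted p = 1.41e-04). *Smarca2*, which encodes Brm, fell from 7424 to 4513 (log2 fold change -0.72, adjusted p = 1.20e-07), and *Pbrm1* from 7396 to 6615 (log2 fold change -0.16, adjusted p = 0.0033). From TGF-β to Both none was called by edgeR at an adjusted or an unadjusted p of 0.05, nor by DESeq2 at an adjusted p of 0.05, with log2 fold changes of -0.04, -0.11 and 0.08.

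Likeness of pattern was measured over all 9 libraries as the Euclidean distance between centred log2 normalized counts, among 10898 genes with a mean of at least 100 normalized counts. Nearest to *Yap1* were *Map4k4*, itself a gene of the kinase list, and *Cstf2t*, at distances of 0.06 and 0.07. Nearest to *Wwtr1* were *Hnrnpl* and *Pon3* (0.06 and 0.07), and nearest to *Tead1* were *Atg2b* and *Ankrd17* (0.08 and 0.09). *Tead2* lay nearest to *Ubald2* and *Aldh2* (0.12 and 0.13), *Tead3* to *Git2* and *Nxf1* (0.11 and 0.11), and *Tead4* to *Pitpnm2* and *Nkd2* (0.31 and 0.31). *Lats2* lay nearest to *Akap17b* and *Stk24* (0.08 and 0.11), *Ajuba* to *Tsg101* and *Syngr2* (0.09 and 0.09), and *Amotl2* to *Dmxl1* and *Lin7c* (0.10 and 0.11). *Ankrd1* lay nearest to *Cep295nl* and *Chaf1a* (0.27 and 0.29). *Ankrd1* and *Tead4* thus had no gene as near as the other 8 did. The distance is not scaled for a gene's spread between libraries or the size of its changes, so both enter it.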

How the data were processed

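RNA-Seq of 9 libraries was analysed, 3 each of Stem, TGF-β and Both. The authors deposited raw counts per Ensembl gene, 1 column per library, not normalized, from ribo-depleted, paired-end libraries. The study's methods name Flexbar and STAR with GRCm39, whereas its processing notes list HISAT2 2.2.1, SAMtools 1.13 and HTSeq 0.11.3 with GRCm39; which of them made the table is not given in the sources used here, nor is the strand setting of the counting. Reads of overlapping or near-identical genes can therefore be misassigned. Exons of *Yap1*, *Tead2* and *Lats2* overlap those of another annotated gene, each of which had at most 1 count in any library. For *Lats2* the overlapping gene lies on the same strand. These low counts do not show whether reads that fall on both genes were dropped.

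Counts were filtered with filterByExpr, scaled by TMM and tested with edgeR 4.0.16 in R 4.3.3, with group as the only term (prior count 0.125). The study used DESeq2, here an alternative (version 1.42.0). Other alternatives were DESeq2's size factors, total counts, no filter, a mean of at least 10 counts, a prior count of 2, a fit of just the 6 libraries in question, blocking on the replicate number, unscaled TEAD shares and leaving out each library; their use on the gene lists was added after the data were seen. Of 55416 identifiers, 52083 had a symbol. Exon lengths came from GENCODE M21 by Ensembl identifier, for all 10 genes, and promoter windows from RefSeq on GRCm38.p6; no other coordinates are given. TEAD shares were compared by exact permutation (SciPy 1.17.1), adjusted over the 4 TEADs. The pipeline was tested on simulated data. The 10 genes and the lists were chosen with earlier results of these data known. The genes named are the 10, in each list up to 4 in each direction with the largest change past adjusted p 0.05 and 2-fold, and the 2 nearest in pattern to each of the 10; others are said to be named after their values were seen.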

Additional observations from a re-analysis of the deposited data

How the results depend on the processing

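Over 17 alternative settings, the 9 genes called between Stem and TGF-β kept their call and direction in each, as did *Ankrd1* between TGF-β and Both and 6 of the 7 genes called between Stem and Both; the seventh, *Wwtr1*, had an adjusted p of 0.056 with total counts. The number of the 10 genes called between TGF-β and Both was 4 in the reported fit and between 1 and 6 when a library was left out, 1 in each of the 6 fits that left out a TGF-β or Both library; fewer libraries were compared in them. Log2 fold changes that were not called turned sign in a few fits. With total counts in place of TMM, the change from Stem to Both became -0.0732 for *Tead1*, -0.0911 for *Amotl2* and -0.0379 for *Ankrd1*. When a library was left out, Stem versus Both reached -0.0073 to 0.0871 for *Tead1* and -0.0090 to 0.0610 for *Amotl2* (-0.00094 without Stem replicate 1), and TGF-β versus Both reached -0.0101 to 0.0818 for *Tead3* and -0.0090 to 0.0690 for *Ajuba*. The *Tead3* share between TGF-β and Both ranged from -0.62 to 0.0074 percentage points. Calls over all genes between TGF-β and Both went from 1327 to 2310 with only the 6 libraries compared, and without filter to 1898, while the 94 calls past 2-fold became 163.

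The replicate numbers were not taken to pair the libraries in the reported fit. Same-numbered libraries had correlations of their deviations from the group mean between -0.05 and 0.20. For replicate 2 these were 0.17 (Stem with TGF-β), 0.14 (TGF-β with Both) and 0.20 (Stem with Both). Replicate 2 against another number gave only negative values, from -0.18 to -0.02. Deviations from a group mean cancel out within the group for each gene. The negative values therefore largely follow from the positive same-number values and add no separate information. Whether replicate 2 shares a batch across groups was not tested. With a replicate block, 10 of the 10 genes were called between Stem and TGF-β, 6 between TGF-β and Both and 7 between Stem and Both. *Tead1* was then called with log2 fold changes of -0.11 and 0.14 and *Tead2* between TGF-β and Both with -0.14, and calls over all genes between TGF-β and Both went to 2309. The cause was not tested. The precision of *Tead4* is limited by its low counts in Stem, where 3 counts correspond to between 3.14 and 3.26 normalized counts.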

Other observations

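Replicate 2 held the lowest value of its group in all 3 groups for *Yap1*, *Wwtr1*, *Tead1* and *Ankrd1*, and the highest in all 3 for *Amotl2*. For *Yap1* in Stem this was a near tie, with 9387 normalized counts in replicate 2 and 9388 in replicate 3. Over all genes tested, 12.5% had their lowest value in replicate 2 of every group and 12.1% their highest. Whether the numbers mark a shared day or culture is not given in the sources used here.

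Of the 19 other targets of YAP and TAZ, 12 had a promoter window, and 4 of these held the core CATTCC or GGAATG, which is 33.3%, against 16.6% of all genes with a window.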
